A study of Mus musculus with 8 samples.

Results

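The genes described here are the Cfap (cilia and flagella associated protein), Rsph (radial spoke head) and Tekt (tektin) genes, taken as every gene whose symbol begins with Cfap or Tekt and a digit, or with Rsph, in any of 10 deposited tables of splicing events. The rule found 38 genes among 12587, of which 25 were Cfap, 8 Rsph and 5 Tekt genes. The tables of spermatocytes held 36 of them and those of round spermatids 37, and 35 stood in both. No Cfap77 or Rsph3b event stood in the spermatocyte tables analysed here, and no Rsph4a event in those of round spermatids.

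Polyadenylated RNA was sequenced from spermatocytes, the germ cells in meiosis, and from round spermatids, the haploid cells that follow them. The cells were sorted by flow cytometry after Hoechst staining of testis cells from adult C57BL/6 mice. The 4 groups were Larp7 knock-out spermatocytes, Larp7 knock-out round spermatids, wild-type spermatocytes and wild-type round spermatids, with 2 libraries in each and 8 in all. Larp7 codes for a La-related RNA-binding protein. The knock-out is described as conditional, and no Cre driver or deleted cell type is named in the labels used here. The headers of the deposited tables number the sample groups of each stage and leave their genotype open, so a difference within a stage is the first minus the second sample group and has no genotype direction. A difference between stages is round spermatids minus spermatocytes over both sample groups. The labels call the libraries biological replicates and do not tie each to its own animal, so p-values measure the spread between these libraries, which may be technical.

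The axoneme is the microtubule core of the sperm flagellum. It is a ring of doublet microtubules around a central pair, with dynein motors on the doublets, radial spokes that reach from the doublets to the central apparatus, and filament proteins, the tektins among them, lining the inside of the doublets. Germ cells begin to transcribe many axoneme genes during meiosis and build the flagellum after it, in spermatids.

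No table of gene abundance was used, so abundance was read from the inclusion plus skipping reads of the most covered splicing event of each gene. These are given as RPM, reads per 1000000 of the library's sum over such events, or, to compare genes, as RPM per kilobase of form length. Event reads over all types came to between 49904607 and 102000320 per library. Larp7 had 184 and 219 against 1147 and 1077 RPM (first against second sample group) in spermatocytes and 274 and 341 against 1164 and 1260 in round spermatids. Between stages, 10 of 11 tested spermatocyte markers fell, 8 of 9 round spermatid markers rose, and so did 4 of 4 elongating spermatid markers. In a sorted population, fewer cells of a type and less RNA per cell cannot be told apart. Among markers of ciliated cells, Foxj1, Mcidas and Ccno were not tested in either stage and Deup1 rose by 3.11 on the log2 scale. Gmnc was tested in round spermatids alone, on 7, 21, 5 and 19 reads.

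Between spermatocytes and round spermatids, 29 of 35 axoneme genes differed in reads, 19 higher and 10 lower in round spermatids (limma, adjusted p under 0.05). Over all 8512 genes tested, 78.2% differed, 28.5% higher and 49.8% lower. The median log2 difference of the 35 genes was 0.37, against -0.45 over all genes. That shift of all genes depends on scaling: with median-ratio factors the median was -0.02 over all genes and 0.80 over the 35, of which 25 were then called higher and 6 lower. Shares of all genes called with those factors are not given here, and the 28.5% and 49.8% do not apply to them. In 23 of the 35 genes the 4 round spermatid libraries did not overlap the 4 spermatocyte libraries, a separation seen in 68.4% of all genes. All 23 were among the 29 called. The stage plot of these genes shows their order by structural role.

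**Figure D1:**
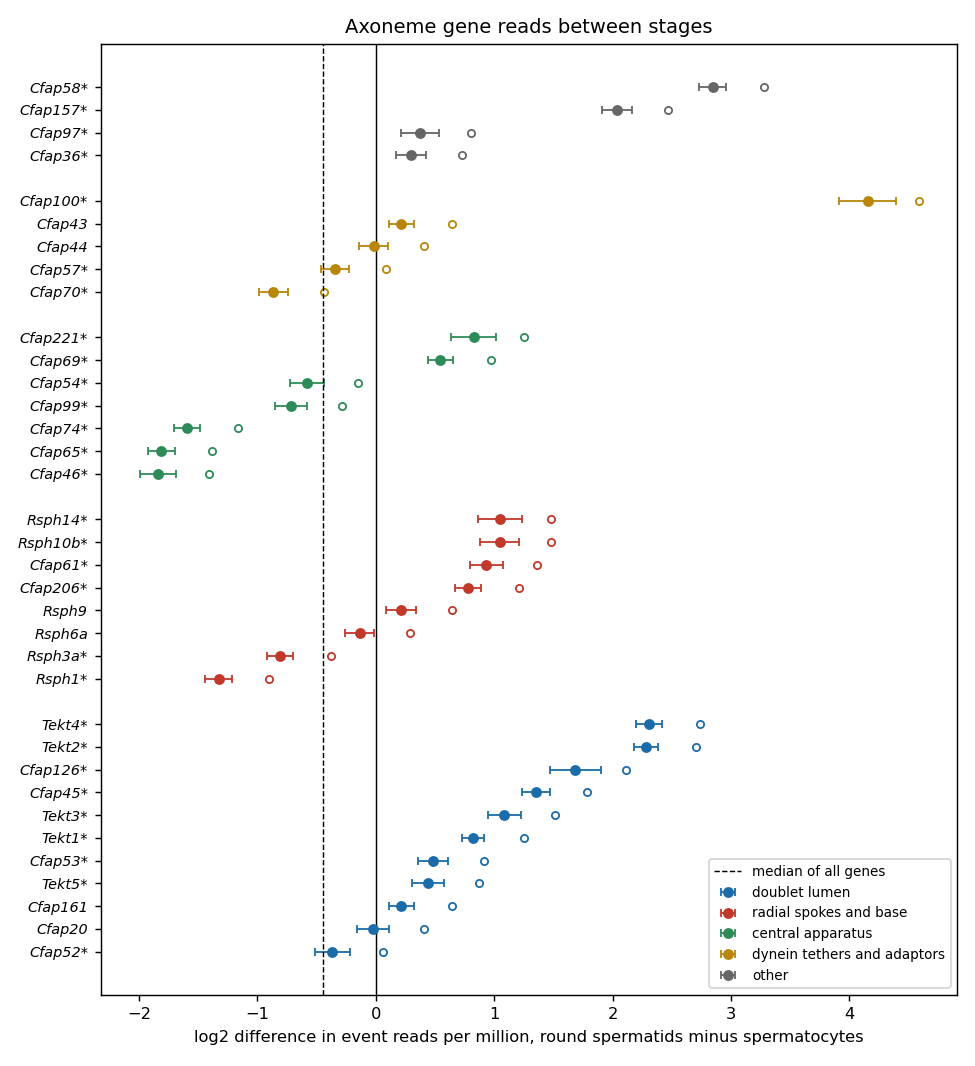
Log2 difference in event RPM between round spermatids and spermatocytes (x axis) for 35 axoneme genes grouped by structural role, with standard errors. Filled points use each library's total, open points median-ratio scaling, asterisks mark genes called in the former (adjusted p under 0.05), and the dashed line is the median of all genes at -0.45. All 5 tektins lie to the right of 0 and 5 of 7 central apparatus genes to the left.

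Genes of the doublet lumen mostly rose. Of 11 tested genes, 8 were higher and 1 was lower in round spermatids, against 28.5% and 49.8% of all genes. The median log2 difference was 0.82, against -0.45 over all genes. Tektins, coiled-coil filament proteins of the doublet lumen, accounted for 5 of the 8, and each of the 5 was called with either scaling. Tekt4 had 170.0, 177, 158 and 156 RPM in the 4 spermatocyte libraries and 721, 913, 798 and 852 in the 4 round spermatid libraries. Every round spermatid value lay above every spermatocyte value, a log2 difference of 2.31 ± 0.11 (SE, limma adjusted p = 1.28e-09). Tekt2 went from 199, 213, 205 and 218 to 937, 1044, 1033 and 1039.5 RPM, again with no overlap (log2 difference 2.28 ± 0.10, limma adjusted p = 7.77e-10). Tekt3 had 527 to 918 RPM in spermatocytes and 1335 to 1683 in round spermatids (log2 difference 1.09 ± 0.14). Tekt1 had 657 to 768 and then 1255 to 1302 (0.82 ± 0.09). Tekt5 went from 107, 118, 123 and 131 to 117, 169, 192 and 181 RPM, and 1 round spermatid library lay within the spermatocyte range (log2 difference 0.44 ± 0.13, limma adjusted p = 0.00924). Its size depended on the event: with reads summed over all Tekt5 events the log2 difference was 1.27 (limma adjusted p = 1.87e-05), above those of Tekt1 (0.85) and Tekt3 (1.10) on the same sums.

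Per kilobase of form length, the 4 tektins measured at a cassette exon held different ranks in the 2 stages. Mean levels of Tekt2 rose from 713 to 3460.0 RPM per kilobase and those of Tekt4 from 544 to 2700.4, each passing Tekt3, which went from 953 to 1996. Tekt5 was last of these 4 in both stages, at 394 and 542. The most covered Tekt1 event is a pair of mutually exclusive exons at 45.1% mean inclusion. Both of its exons were in at least 99.6% of transcripts in every library when read as cassette exons, so that level does not stand for a choice between them. The event counts the reads of both exons, so its 2145 and 3781 RPM per kilobase are not comparable with the levels of the other tektins.

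**Figure D2:**
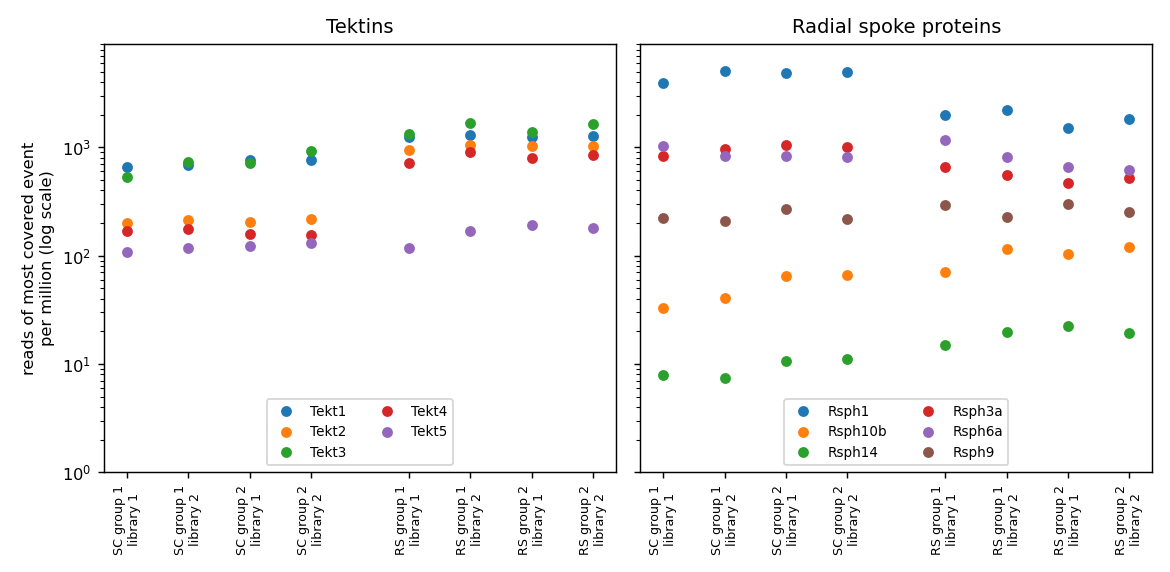
RPM of the most covered event (y axis, log scale) in each of the 8 libraries (x axis, SC spermatocytes and RS round spermatids, by sample group and library) for 5 tektin genes and 6 Rsph genes. Tekt2 and Tekt4 sit between 156 and 218 in spermatocytes and between 721 and 1044 in round spermatids, while Rsph1 falls from at least 3921 to at most 2211.

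The RFX transcription factors drive ciliary genes in many tissues by binding the X-box, part of which reads GTTGCC. Promoter windows from RefSeq (GRCm38.p6, 250 bases before to 50 after a gene's start) were at hand for 30 of the 38 genes, in 37 windows. GTTGCC, searched on both strands, stood in 13 of these windows (35.1%), belonging to 11 genes. It stood in 12.5% of all 32851 windows and in 14.3% of the windows of genes tested between stages. By gene, it was in 5 of 15 called higher and 2 of 7 called lower in round spermatids, and some genes have several overlapping windows (28.6% and 37.5% of windows). TGACG, part of the cyclic AMP response element that CREM binds, was in 18.9% of the axoneme gene windows. It was in 20.8% of all windows and in 31.5% of the windows of genes tested between stages. AACNG, a MYB core, was in 89.2% of the axoneme gene windows, 80.3% of all windows and 79.2% of those of tested genes. A match to AACNG can share bases with GTTGCC on the other strand. A match is a description of the letters and not a measured site.

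The windows of 3 tektins that rose are shown because they carry this motif close to the start, with GTTGCC or its reverse complement GGCAAC in capitals. They were chosen after the matches were seen. All run 5′ to 3′ on the gene's strand, Tekt1 from chr11:72361833-72362132 (minus strand), Tekt2 from chr4:126325639-126325938 (minus strand) and Tekt4 from chr17:25471340-25471639 (plus strand).
Tekt1: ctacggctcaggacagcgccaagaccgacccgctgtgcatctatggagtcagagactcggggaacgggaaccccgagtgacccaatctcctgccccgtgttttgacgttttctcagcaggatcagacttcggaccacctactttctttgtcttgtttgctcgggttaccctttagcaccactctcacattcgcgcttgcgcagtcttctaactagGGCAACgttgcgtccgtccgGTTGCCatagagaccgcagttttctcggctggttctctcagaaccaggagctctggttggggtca
Tekt2: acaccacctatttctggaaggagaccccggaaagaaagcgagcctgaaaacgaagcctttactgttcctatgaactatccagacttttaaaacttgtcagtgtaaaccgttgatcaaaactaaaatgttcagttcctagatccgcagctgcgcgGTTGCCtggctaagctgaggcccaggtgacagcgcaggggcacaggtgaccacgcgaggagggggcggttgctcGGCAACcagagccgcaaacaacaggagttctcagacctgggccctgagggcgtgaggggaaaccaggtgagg
Tekt4: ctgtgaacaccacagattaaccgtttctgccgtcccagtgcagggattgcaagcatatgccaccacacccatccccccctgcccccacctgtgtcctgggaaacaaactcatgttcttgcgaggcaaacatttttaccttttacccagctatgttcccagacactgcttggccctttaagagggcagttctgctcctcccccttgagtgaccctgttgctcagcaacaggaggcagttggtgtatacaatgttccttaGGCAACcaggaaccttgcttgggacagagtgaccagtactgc
Counted from the start site as base 1, with negative numbers before it, the Tekt1 matches began at -35 (reverse complement) and -15. Those of Tekt2 began at -96 and -22 (reverse complement). Tekt4 had 1 match, as the reverse complement, at 9, just inside the transcribed part. A second Tekt1 window, of another annotated start, held none. Tekt2 had 3 windows, of which the one printed has its matches nearest the start, another held the same matches at -138 and -64, and one held none.

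Among the other lumen proteins, Cfap126 (Flattop) had 135, 178, 123 and 191 RPM in spermatocytes and 351, 681, 410.1 and 617 in round spermatids (log2 difference 1.69 ± 0.22, limma adjusted p = 1.1e-05). The round spermatid libraries differed among themselves by more than those of the tektins, and still all lay above the spermatocyte libraries. Cfap45 rose from between 223 and 338 to between 649 and 802 (1.35 ± 0.12), and Cfap53 from between 111 and 145 to between 165 and 209 (0.48 ± 0.13). Cfap161 and Cfap20 were not called, with log2 differences of 0.22 ± 0.11 and -0.02 ± 0.14 (limma adjusted p = 0.0822 and 0.880). Both were called higher with median-ratio scaling, at 0.64 and 0.41, while on sums over all events Cfap20 was called lower, at -0.27. Cfap52 was called lower at -0.37 ± 0.15 (limma adjusted p = 0.0412), its libraries overlapped, and with median-ratio scaling its difference was 0.06. Cfap77 was measured only in round spermatids, at 45.2, 55.9, 40.4 and 44.8 RPM.

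Radial spoke genes went both ways, more often up than all genes. Of 8 tested, 4 were higher and 2 lower in round spermatids, where 28.5% of all genes were higher and 49.8% lower. Their median log2 difference was 0.50, against -0.45 over all genes. With median-ratio scaling 6 were higher and 2 lower, with a median of 0.93 against -0.02 over all genes. Rsph1, a protein of the spoke head, was the most covered of the 35 genes per kilobase in both stages, at 19564 RPM per kilobase in spermatocytes and 7833 in round spermatids. It had 3921, 5016, 4899 and 4944 RPM in spermatocytes and 1969, 2211, 1496 and 1844 in round spermatids. No libraries overlapped, and the log2 difference was -1.33 ± 0.11 (limma adjusted p = 2.69e-07). Rsph3a, of the spoke stalk, fell from between 839.9 and 1047 to between 470.0 and 662 (-0.81 ± 0.11). Rsph3a and Rsph3b are near-identical copies, so how their reads were shared between them is uncertain. Rsph3b was measured only in round spermatids, at 199, 170.4, 128 and 156 RPM.

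Rsph10b, of the spoke head, rose from 32.8, 40.3, 64.2 and 65.6 to 71.4, 115, 103 and 121 RPM (log2 difference 1.05 ± 0.16, limma adjusted p = 6.4e-05). The lowest round spermatid library was 71.4 and the highest spermatocyte library 65.6, so the stages were separate but close. Rsph14 rose by a like amount at a level near the bottom, from 7.83, 7.44, 10.7 and 11.2 to 14.9, 19.8, 22.4 and 19.4 (1.05 ± 0.19). Rsph9 and Rsph6a, also of the spoke head, were not called, at 0.22 ± 0.13 and -0.14 ± 0.13. Rsph9 was called higher with median-ratio scaling, at 0.65 (limma adjusted p = 0.000355). The sign of the Rsph6a value turned to 0.29 with median-ratio scaling (limma adjusted p = 0.0361). Rsph4a, the spoke head gene of motile cilia in other tissues, had 30, 37, 15 and 10 reads in the 4 spermatocyte libraries, or 2.08 RPM per kilobase. At the spoke base, Cfap206, the docking protein of a spoke, rose from between 958 and 1479 to between 1853 and 2212 RPM (0.78 ± 0.11), and Cfap61 from between 51.4 and 73.6 to between 105 and 135 (0.93 ± 0.14).

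Of 7 central apparatus genes tested, 5 were lower and 2 higher in round spermatids, where 49.8% of all genes were lower. Their median log2 difference was -0.72, against -0.45 over all genes. With median-ratio scaling 3 were lower and 2 higher, with a median of -0.29 against -0.02 over all genes. Cfap46, part of a projection of the central pair, had 131, 136, 197 and 184 RPM in spermatocytes and 57.5, 40.7, 48.3 and 34.3 in round spermatids. That is a log2 difference of -1.84 ± 0.15 with no overlap (limma adjusted p = 2.01e-07). Cfap74, of the same projection, fell from 255, 295, 372 and 397 to 113, 111, 100 and 106 (-1.60 ± 0.11, limma adjusted p = 3.31e-08). Cfap65, a central pair protein whose loss in mice leaves sperm with deformed flagella, fell from between 1749.9 and 2390.2 to between 522 and 677 (-1.81 ± 0.11). Its most covered event spans an intron that was retained less in round spermatids, as given below for inclusion, so that this value joins spliced and unspliced reads. Cfap99 fell by 0.72 ± 0.13 and Cfap54 by 0.58 ± 0.14 on the log2 scale. With median-ratio scaling these last differences were -0.29 and -0.15 and were not called (limma adjusted p = 0.0664 and 0.357). Cfap221, of the same projection as Cfap46, rose from between 21.1 and 37.1 to between 37.4 and 67.8 RPM (0.83 ± 0.19), and Cfap69 from between 279 and 367 to between 416 and 491 (0.55 ± 0.11).

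Of 7 falling genes with a promoter window, 2 carried the motif of the 3 tektins shown, while the windows of Tekt3 and Tekt5 held none. The windows of these 2 genes, Cfap46 (chr7:139683766-139684065, minus strand) and Cfap74 (chr4:155408940-155409239, plus strand), are given with GTTGCC or GGCAAC in capitals.
Cfap46: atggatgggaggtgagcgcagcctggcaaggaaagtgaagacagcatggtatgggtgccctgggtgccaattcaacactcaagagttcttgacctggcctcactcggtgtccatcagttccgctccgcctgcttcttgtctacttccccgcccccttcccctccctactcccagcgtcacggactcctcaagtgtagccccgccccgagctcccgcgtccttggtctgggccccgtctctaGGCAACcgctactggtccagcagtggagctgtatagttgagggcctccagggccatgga
Cfap74: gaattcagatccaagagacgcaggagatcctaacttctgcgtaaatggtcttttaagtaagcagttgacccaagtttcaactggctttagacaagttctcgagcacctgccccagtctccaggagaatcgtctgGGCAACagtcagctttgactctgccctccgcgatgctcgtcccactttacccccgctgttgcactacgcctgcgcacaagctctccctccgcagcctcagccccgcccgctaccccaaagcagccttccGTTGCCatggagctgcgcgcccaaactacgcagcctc
The Cfap46 match, a reverse complement, began at -9. Those of Cfap74 began at -116 (reverse complement) and 14, and at -166 and -37 in its other window. Within the whole windows the motif stood in 5 genes called higher and in 2 called lower, Cfap46 and Cfap74.

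Genes of the dynein arms and their tethers had no common direction. Of 5 tested, 1 was higher and 2 were lower, where 28.5% of all genes were higher and 49.8% lower. With median-ratio scaling 3 were higher and 1 was lower. Cfap100, a regulator of the inner dynein arms, had the largest difference of the 35 genes, from 7.10, 6.45, 4.69 and 11.7 RPM to 98.3, 120.3, 161 and 137. The log2 difference was 4.16 ± 0.24 (limma adjusted p = 6.17e-09), or 17.8-fold, from the lowest level of the 35 genes in spermatocytes, at 22.2 RPM per kilobase. Cfap70, of the outer dynein arm, fell from 347, 367, 557 and 546 to 279, 201, 263 and 237 (-0.87 ± 0.12, limma adjusted p = 2.76e-05). Cfap57, of the inner arm, was called lower at -0.35 ± 0.12 with overlapping libraries and stood at 0.08 with median-ratio scaling. Cfap43 and Cfap44, the tether of an inner arm dynein, were not called, at 0.22 ± 0.11 and -0.02 ± 0.12. Both were called higher with median-ratio scaling, at 0.64 and 0.41 (limma adjusted p = 0.000297 and 0.0120).

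Of the 4 remaining genes, all were called higher, against 28.5% of all genes. Cfap58 had 41.5, 43.0, 44.8 and 51.1 RPM in spermatocytes and 294, 315, 345 and 342 in round spermatids (log2 difference 2.85 ± 0.12, limma adjusted p = 4.41e-10). Cfap157 rose from between 44.7 and 74.3 to between 200.3 and 243 (2.04 ± 0.12). Both are known in mice as genes needed for the sperm flagellum. Cfap97 and Cfap36 differed by 0.37 ± 0.16 and 0.30 ± 0.13, with overlapping libraries and limma adjusted p of 0.0494 and 0.0453. The event that stood for Cfap97 between stages had at most 73.8 RPM, while its most covered event in spermatocytes had between 522 and 737.

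At the most covered event, the alternative exon was mostly included. That event was picked by its reads, inclusion reads among them. The same share was not counted over all genes, so it is no trait particular to these genes. Between stages that event was a cassette exon in 30 of 35 genes, a mutually exclusive pair in 3 and an alternative 3′ splice site in 2. Of the 30 cassette exons, 28 had a mean inclusion of at least 90% and 21 of at least 99%. The exceptions were Cfap126, whose 187 nt exon was in 5.23% of transcripts, and Cfap97, at 19.2%. Rsph14 used a pair of acceptors 3 nt apart, with the longer form at 68.3, 74.0, 66.9 and 69.5% in spermatocytes and 58.5, 59.6, 57.4 and 57.1% in round spermatids. Those libraries did not overlap, and the difference was not called (limma adjusted p = 0.0795). Cfap100 kept a 108 nt intron (chr6:90409494-90409601) in 40.1% to 43.9% of transcripts in spermatocytes and 40.3% to 43.5% in round spermatids, although its reads rose 17.8-fold.

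Over all their events, 19 of 35 axoneme genes had at least 1 event whose inclusion differed between stages (limma, adjusted p under 0.05), against 28.2% of 8512 genes. A gene with more events is more easily counted so. The 35 genes had 323 events tested and the 8512 genes 34455, and counts of genes were not adjusted for this. The 52 events called were 32 higher and 20 lower in round spermatids, out of 323 tested, and over all 34455 events 12.5% were called, 6.5% higher and 5.96% lower. A quasi-binomial test called 39 of the 52 events, in 16 genes, and left out Cfap61, Cfap221 and Tekt4. Differences of at least 10 percentage points were called in 5 genes, against 13.2% of all genes. These were Cfap43, Cfap54, Cfap65, Cfap70 and Cfap74.

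Of 5 retained introns tested in these genes, 3 were lower in round spermatids and 0 higher, against 27.8% lower and 3.76% higher among 2343 retained introns of all genes. The other 2, in Cfap20 and Cfap100, were not called (limma adjusted p = 0.0968 and 0.972). Cfap74 kept a 289 nt intron (chr4:155463555-155463843, mm10) in 40.9, 47.5, 46.5 and 54.0% of transcripts in the 4 spermatocyte libraries and 20.3, 25.3, 22.4 and 21.4% in the 4 round spermatid libraries. Every round spermatid library was lower, by a mean of 24.8 points (log2 odds -1.63 ± 0.20, limma adjusted p = 2.08e-14). Cfap65 kept a 1727 nt intron (chr1:74923066-74924792) in 49.8, 42.5, 43.4 and 41.8% and then 39.2, 24.8, 35.6 and 29.9% (log2 odds -0.81 ± 0.13, limma adjusted p = 9.02e-09). Its libraries did not overlap either, but the highest round spermatid value, 39.2%, was close to the lowest spermatocyte value, 41.8%. In Tekt2, a 158 nt intron (chr4:126324436-126324593) went from 16.2, 12.7, 10.9 and 9.20% to 10.2, 6.50, 4.86 and 5.52% (log2 odds -0.98 ± 0.16, limma adjusted p = 8.42e-08). One round spermatid library lay within the spermatocyte range, and in both stages the first sample group had the higher values. The reads of Cfap74 and Cfap65 fell between these stages and those of Tekt2 rose.

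Cfap74 exons changed between the same stages. A 144 nt exon (chr4:155418847-155418990) was in 61.5, 56.6, 67.2 and 69.8% of transcripts in spermatocytes and in 92.4, 91.6, 100 and 92.4% in round spermatids. The stages were far apart, yet the call was narrow (limma adjusted p = 0.0455), and the skipping form had 1, 2, 0 and 1 reads in round spermatids. A 158 nt exon went from 74.1, 74.1, 83.3 and 82.7% to 88.2, 86.5, 87.9 and 94.7% (limma adjusted p = 7.48e-05), and a 135 nt exon from between 80.5 and 85.4% to between 90.4 and 95.6%. A 13 nt stretch at an alternative 3′ splice site was included in 78.2% to 79.8% and then in 86.1% to 92.4%. All 4 of these events rose, with no overlap between stages, while a 122 nt exon was called lower by limma alone, by 0.621 points.

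Cfap65 likewise held a rising exon beside its falling intron. Its 185 nt exon (chr1:74931844-74932028) was in 63.4, 69.4, 68.6 and 67.5% of transcripts in spermatocytes and 80.7, 87.5, 86.3 and 83.0% in round spermatids, a rise of 17.2 points (log2 odds 1.38 ± 0.20, limma adjusted p = 3.13e-10). Inclusion of 3 further Cfap65 exons rose by at most 3.41 points, the 67 nt exon at chr1:74910703-74910769 among them, from between 93.4 and 98.1% to between 98.3 and 100%. Events of a gene share reads and are not independent of each other.

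A rarely used Cfap43 exon fell. A 43 nt exon (chr19:47739924-47739966) was in 41.9, 24.6, 41.0 and 36.4% of transcripts in spermatocytes and 15.3, 7.51, 10.7 and 8.10% in round spermatids, a mean of 25.6 points lower with no overlap (log2 odds -2.21 ± 0.49, limma adjusted p = 0.000142). Its inclusion form had between 13 and 17 reads in spermatocytes and between 4 and 9 in round spermatids. In an event of the same exon with other flanks and more reads, it was in 0.777% to 2.03% and then in 0.324% to 0.546% of transcripts, also called lower (limma adjusted p = 0.000436).

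Smaller or less certain shifts were seen in the other genes. Cfap46 lost a 147 nt exon from 98.7, 99.5, 99.7 and 99.7% to 95.0, 90.6, 92.2 and 95.2% (limma adjusted p = 8.58e-06), while a 112 nt exon went from at most 1.5% to 10.99, 13.8, 2.57 and 2.98%. In round spermatids the first sample group held the higher values of that 112 nt exon, a difference that was not called (limma adjusted p = 0.226). Cfap161 and Cfap126 gained 4.20 and 3.60 points in the exons that were their most covered events, and Cfap57 lost 3.41 points. Cfap99 gained 8.23 points in a 113 nt exon, from between 85.4 and 93.0% to between 95.3 and 98.8%. Cfap54 lost 11.6 points in a 147 nt exon and Cfap70 10.2 points in a mutually exclusive exon of 90 nt, both with overlapping libraries and neither called without weights (limma adjusted p = 0.171 and 0.211). The exons of the Cfap70 pair were not also read as cassette exons, so its level need not stand for a choice between them. Cfap61 gained 4.73 points in a 157 nt exon, a change not called by the quasi-binomial test (adjusted p = 0.0685). Among the Rsph genes only Rsph9 had a called event, its 166 nt exon rising from between 97.1 and 98.7% to between 99.5 and 99.7%. Of the tektins, Tekt2 and Tekt4 did, and the Tekt4 change was 0.120 points.

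**Figure D3:**
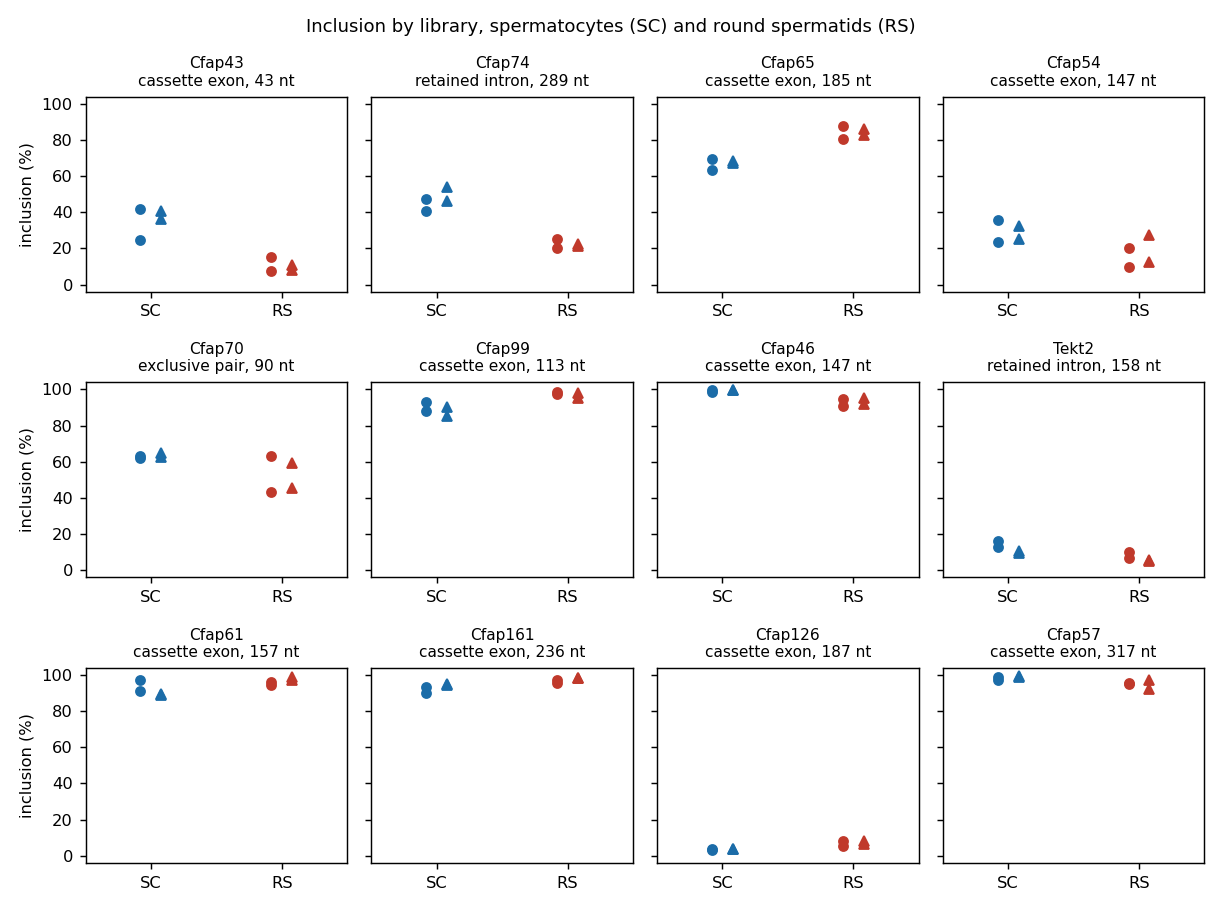
Inclusion level in percent (y axis) of 12 events in each library of spermatocytes (SC, blue) and round spermatids (RS, red), circles for the first and triangles for the second sample group. The event drawn is that of smallest p in each of the 12 genes with the largest called differences, and Cfap43, Cfap74 and Cfap65 show the stages apart by 17.2 to 25.6 points.

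Between the sample groups of spermatocytes, reads of 32 of 36 axoneme genes had a log2 difference below 0, with a median of -0.32 against 0.16 over all genes, and 1 of the 36 lay above that median. Of the 36, 4 were called lower and 0 higher (limma, adjusted p under 0.05), against 0.832% and 4.71% of 9861 genes (5.54% in either direction). At an unadjusted limma p under 0.05 there were 17, and 10 were called with median-ratio scaling. For neither count is the share of all genes given here. The groups did not overlap in 27 of 36 genes and in 57.5% of all genes.

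Cfap70 had 276 and 268 against 448 and 522 RPM (first against second sample group), and was called in each fit that left out 1 library (log2 difference -0.83 ± 0.13, limma adjusted p = 0.00773). Rsph10b had 26.5 and 32.9 against 53.0 and 54.0 (-0.85 ± 0.19, limma adjusted p = 0.0268), and whether its reads were shared with similar sequences was not tested. For Cfap57 the values were 229.7 and 257 against 368 and 354 (-0.57 ± 0.13, limma adjusted p = 0.0303). Cfap99 had 64.4 and 81.3 against 109 and 112 (-0.61 ± 0.16, limma adjusted p = 0.0472). It was not called on sums over all events (-0.37, limma adjusted p = 0.0631). Both first-group values lay below both second-group values in each of the 4 genes. Cfap74, Cfap43 and Cfap157 just missed the threshold, at limma adjusted p of 0.0506, 0.0532 and 0.0609. By role, the dynein tether genes had a median of -0.53 over 5 genes and the central apparatus genes -0.41 over 7. Tektins were close to each other, from -0.41 to 0.12, and 0 of 5 were called (1 at an unadjusted p under 0.05, Tekt3 at 0.0332, and 0 with median-ratio scaling).

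Markers of some other cells differed between these groups. Of 3 measured Leydig, peritubular and immune markers 0 were called, with sums of 66.0 and 39.9 against 34.6 and 44.1 RPM (first against second sample group). For 9 round spermatid markers the sums were 1053 and 1215 against 1224 and 1280, with a median log2 difference of -0.04 and 0 called. Deup1, the 1 ciliated cell marker tested, was not called, at -0.38. The summed level of 7 measured spermatogonial markers was 233 and 60.5 against 19.2 and 25.1 RPM, and of 4 Sertoli cell markers 205 and 135 against 40.9 and 69.2. Of those lists 5 of 7 and 3 of 4 were called higher in the first sample group, and Gfra1, Id4, Nanos3, Amh, Gata4, Rhox5 and Sox9 were not tested. The 11 measured spermatocyte markers summed to 13709 and 12789 against 12981 and 10721, and 5 of the 11 were called higher and 0 lower, with a median log2 difference of 0.64. The first library of the first sample group was highest in these 3 lists, and also in the Leydig, peritubular and immune list. The 4 measured elongating spermatid markers went the way of the axoneme genes, with sums of 1739 and 2093 against 2741 and 2456 and a median log2 difference of -0.37, and 0 of 4 were called. For each of these lists, its part in the axoneme gene result was not tested. With the library highest in those 3 lists left out, 1 axoneme gene was called, and with the other library of its group left out, 11. With either library of the second sample group left out, 1 and 2 were called.

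In round spermatids no axoneme gene passed the test between sample groups. The median log2 difference was 0.01 over 37 genes against 0.08 over all genes, and 0 of 37 were called by limma, against 0.0859% of 9315 genes (0.0751% higher, 0.0107% lower). Median-ratio scaling and the reads of all events called 0. Without the second library of the first group some were called, on a lone library there, and the share of all genes is not given here. At an unadjusted p under 0.05 there were 2. Those 2 were Rsph6a, with 1042 and 715 against 569 and 542 RPM (log2 difference 0.64 ± 0.21), and Cfap54, with 55.0 and 50.5 against 32.9 and 32.4 (0.69 ± 0.24). Neither passed adjustment (limma adjusted p = 0.266 and 0.292). The groups did not overlap in 16 of 37 genes and in 42.9% of all genes. Cfap70, lower in the first group of spermatocytes, had 249 and 175 against 229 and 206 in round spermatids, at another event, since the most covered event was the same in both stages for 15 of 35 genes. At the event shared by both stages it had 347 and 367 against 557 and 546 RPM in spermatocytes and 279 and 201 against 263 and 237 in round spermatids. Whether the difference between sample groups itself differed between stages was not tested, since the tables do not say that the groups are in the same order.

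**Figure D4:**
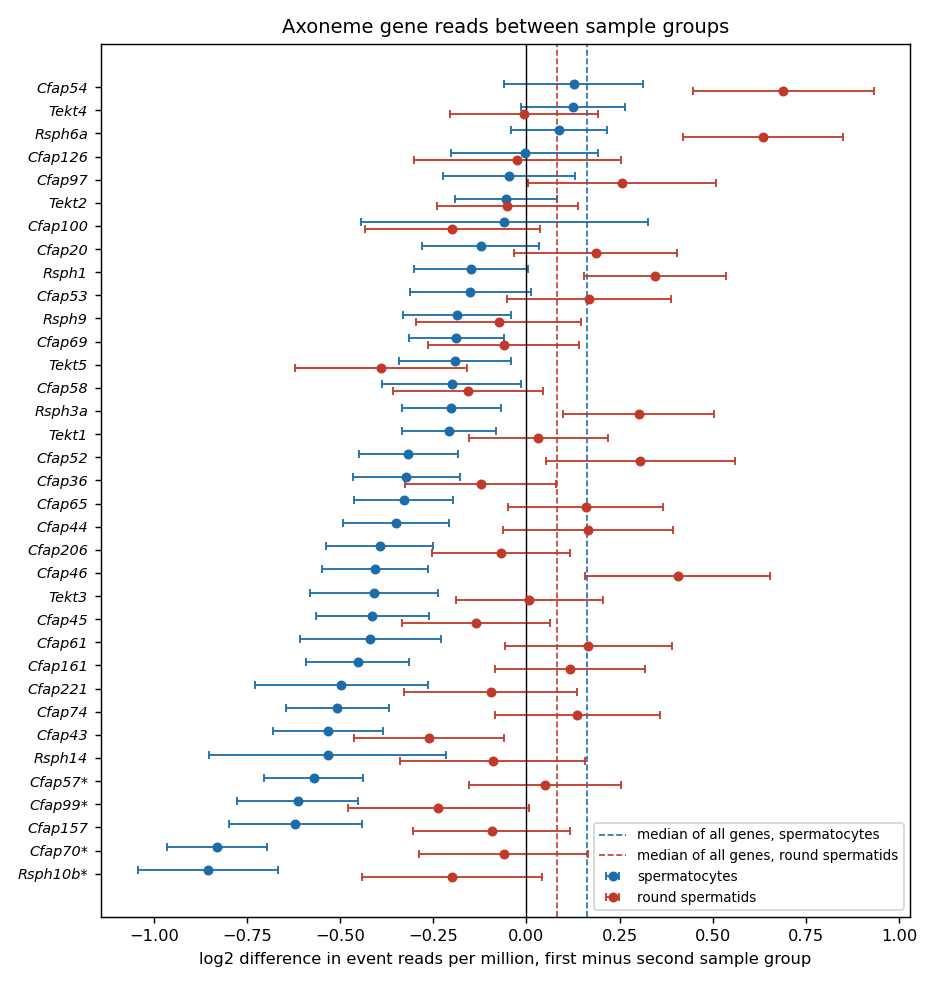
Log2 difference in event RPM between the first and second sample group (x axis, with standard errors) in spermatocytes (blue) and round spermatids (red) for 35 axoneme genes ordered by the spermatocyte value. Asterisks mark the 4 genes called in spermatocytes, dashed lines are the medians of all genes at 0.16 and 0.08, and Rsph4a, Cfap77 and Rsph3b, measured in 1 stage, are not drawn.

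Inclusion differed between sample groups of spermatocytes in 2 of 36 genes (limma, adjusted p under 0.05), Cfap46 and Cfap65, against 2.57% of 9860 genes. Counts of genes were again not adjusted for their number of events. Among 543 events of these genes 3 were called, 1 higher and 2 lower. Of all 61122 events 0.537% were called, 0.139% higher and 0.398% lower. A called difference of at least 10 points stood in 1 of the 36 genes and in 1.17% of all genes. In Cfap46 a 56 nt stretch at an alternative 5′ splice site (chr7:139653339-139653394) was included in 56.8 and 58.7% against 34.8 and 35.1% of transcripts. The event had 224 and 360 inclusion and 124 and 184 skipping reads in one group, and 214 and 238 against 291 and 320 in the other. The difference of 22.8 points lay far outside the spread within groups (log2 odds 1.35 ± 0.29, limma adjusted p = 0.00167, quasi-binomial adjusted p = 0.000895). In round spermatids the same site stood at 43.6 and 54.3% against 47.8 and 41.5%, and the groups overlapped. Its length is not a multiple of 3.

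Cfap65 differed by less. Its 67 nt exon was in 94.2 and 93.4% against 98.1 and 97.8% (limma adjusted p = 0.000311) and its 129 nt exon (chr1:74916763-74916891) in 97.4 and 98.5% against 99.5 and 99.3% (limma adjusted p = 0.0138). These 3 calls were also made by the quasi-binomial test. None of the 3 passed with equal weights or with the spread modelled on total reads, where the Cfap46 site had limma adjusted p of 0.0982 and 0.0941. The quasi-binomial test added a 199 nt Cfap206 exon, at 99.2 and 99.1% against 99.8 and 99.9% (adjusted p = 0.0493).

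The authors' deposited table gives an FDR under 0.05 and at least 10 points in spermatocytes to Cfap46, Cfap70, Cfap65, Rsph10b and Cfap99, 5 of 36 genes, against 11.4% of all genes. The Cfap70 and Cfap65 events had 0 skipping reads in the second sample group and between 2 and 8 in the first. In the Cfap99 event, a 95 nt exon, inclusion was 39.4 and 24.2% against 12.2 and 5.62%, on between 4 and 16 inclusion reads a library, and limma did not call it (adjusted p = 0.257). In round spermatids the authors' deposited table gives such a value to Rsph10b alone, 1 of 37 genes against 5.86%, on an event with at most 8 inclusion reads a library. There limma and the quasi-binomial test called 0 events of these genes, while limma called 0.515% of 9315 genes and 0.131% of 48060 events (0.0437% higher, 0.0874% lower), and 0.225% of genes by at least 10 points. At an unadjusted p under 0.05 there were 18 and 12 of 446 events.

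The longer of 2 Cfap206 donors 3 nt apart was used in 63.4 and 60.9% against 71.8 and 69.9% in spermatocytes and in 59.6 and 63.0% against 69.5 and 72.1% in round spermatids. The groups did not overlap in either stage, as in 30.7% and 25.1% of all events tested, and the difference was called in neither (limma adjusted p = 0.218 and 0.641). It was singled out after its values were seen.

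**Figure D5:**
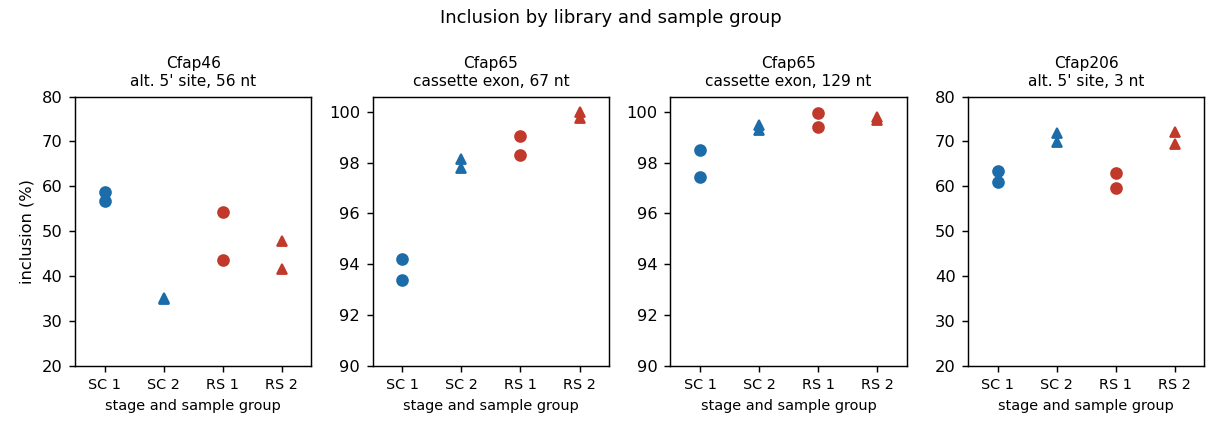
Inclusion level in percent (y axis, ranges differ and do not start at 0) of 4 events in each library, by stage (SC spermatocytes, RS round spermatids) and sample group (1 or 2). The Cfap46 site separates the spermatocyte groups at 56.8 and 58.7 against 34.8 and 35.1 and overlaps in round spermatids.

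Axoneme genes outside the Cfap, Rsph and Tekt families were counted on a list of 43. Of 36 tested between stages, 17 were higher and 7 lower in round spermatids, against 28.5% and 49.8% of all genes. The median log2 difference was 0.29, against -0.45 over all genes. Partners of the doublet lumen rose in 8 of 10 and fell in 0 (median 0.88), led by Efhc2 at 4.06 ± 0.23 and Ribc1 at 3.81 ± 0.15. Both Efhc2 and Ribc1 lie on the X chromosome, and the part of that location in their differences was not tested. Other genes of the central apparatus were higher in 1 and lower in 3 of 8, a median of -0.23 that was 0.20 with median-ratio scaling. The largest differences were Fbxl13 of the nexin-dynein regulatory complex (4.12 ± 0.18), Efhc2, Ribc1 and Ppil6 (2.47 ± 0.17). Between sample groups of spermatocytes 4 of 38 were lower and 1 higher, the lower ones being Drc7 (-0.77 ± 0.19), Wdr66, Lrrc23 and Ccdc39 and the higher one Ribc1 (1.01 ± 0.27). Of all genes 0.832% were called lower and 4.71% higher. With median-ratio scaling 11 of the list were lower and 0 higher, and the share of all genes with that scaling is not given here. In round spermatids limma called 0 of 40, against 0.0859% of all genes.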

How the data were processed

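The submitters' processing notes name STAR and mm10, and the labels used here state no version of STAR or rMATS. The deposited rMATS tables give, per the file headers, inclusion and skipping read counts of 5 event types for 2 libraries per sample group, joined in 1 cell, with form lengths. They also hold the authors' p-value and FDR per event and the inclusion level difference, a score from -1 to 1, as deposited. Levels recomputed from the counts matched the deposited ones within 0.0005.

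Inclusion was tested by limma (3.58.1, R 4.3.3) on log2 odds of length-scaled counts (0.5 reads added) with count weights and an empirical Bayes spread trended on reads of the rarer form, for events with a mean of at least 10 reads per library. A quasi-binomial test was run beside it, since in simulated data whose spread grows with depth the former called more unchanged events than its threshold allows. Abundance was tested by limma with a trended prior on log2 RPM of each gene's most covered event. Such reads also depend on event type and length. Adjusted p-values are Benjamini-Hochberg over all features of a comparison. Alternatives were median-ratio scaling, sums over all events, other read minimums, no weights, a trend on total reads, and each library left out. The scripts were tested on simulated data.

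The genes, their role lists and the markers were chosen with earlier results of these data known. Named by rule were genes called between sample groups, the 6 largest rises and 6 largest falls in reads between stages, the 12 largest called inclusion differences, the 3 highest and 3 lowest levels, every Rsph and Tekt gene, genes whose most covered event had between 10% and 90% mean inclusion, and the 4 largest called differences of each list of other genes. The remaining genes are named to account for every role, after their values were seen. Promoter windows came from RefSeq (GRCm38.p6).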

Additional observations from a re-analysis of the deposited data

How the results depend on the processing

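Depth limits events with few reads of the rarer form, and each comparison within a stage rests on 2 libraries against 2. Leaving out 1 there leaves a lone library, assumed to vary like the others. No paired analysis was possible because the values joined in a cell carry no replicate number. Where a value changed, the cause was not tested.

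The 2 genes called for inclusion between sample groups of spermatocytes became 0 with a trend on total reads, 0 without count weights and 0 with a minimum of 1 read, and 0 to 24 with 1 library left out (24 and 23 with a library of the first group left out, 0 with one of the second). In round spermatids 0 became 0 to 25, and 25 and 21 were those with a library of the first group left out. The 19 genes called between stages became 12 without count weights, and 13 to 17 with 1 library left out. For reads between sample groups of spermatocytes, 4 became 10 with median-ratio scaling, 7 with sums over all events (Cfap99 not among them) and 1 to 11 with 1 library left out. For reads in round spermatids 0 became 0 to 3, and for reads between stages 29 became 25 to 29. Between stages, median-ratio scaling turned the log2 differences of Cfap52, Cfap57 and Rsph6a to 0.0626, 0.0834 and 0.29. The 201 nt Cfap46 exon at chr7:139630798-139630998 ran from -3.39 to 0.75 in log2 odds with 1 library left out, and was positive without the second library of the first group of round spermatids. Of the other values between stages, 476 for inclusion kept direction and call and 199 kept direction only, and 374 and 23 did so for reads.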

Other observations

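Regulators of ciliary and spermatid genes were counted on a list of 16. Of 11 tested between stages, 6 were higher and 3 lower in round spermatids, against 28.5% and 49.8% of all genes. The median log2 difference was 0.98, against -0.45 over all genes. Sox5 had at most 25.8 RPM in spermatocytes and 218, 421, 375 and 421 in round spermatids (log2 difference 4.14 ± 0.21). Rfx1 had between 8.68 and 18.5 and then between 163 and 187 (3.69 ± 0.17). Rfx3 rose by 2.78 ± 0.27. Mybl1, the MYB factor of meiotic germ cells, fell by 1.79 ± 0.16. Taf7l, on the X chromosome, was the 1 regulator of 11 called between sample groups of spermatocytes, at 73.8 and 17.9 against 3.49 and 3.95 RPM. Of all genes 5.54% were called there. In round spermatids limma called 0 of 12, against 0.0859% of all genes.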
